A study of Mus musculus with 6 samples.

Results

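The tumor necrosis factor (TNF) superfamily, its receptors and the TNF receptor-associated factors (TRAFs) were followed in the mouse hippocampus 24 h after cerebral ischemia reperfusion (I/R). The genes were taken by name: every row of the gene table whose symbol begins with Tnfsf or Tnfrsf and a digit, together with Tnf, Lta, Ltb, Ltbr, Fas, Fasl, Cd27, Cd40, Cd40lg, Cd70, Tradd, Fadd and Traf1 to Traf7, with Ngfr left out. This gave 50 of the 41386 genes in the table, and 46 of them had at least 10 reads over the 6 libraries and were tested among 22996 genes.

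The I/R group comprised 3 hippocampus libraries from C57BL/6 mice (C57BL/6J in the study's methods) given 1.5 h of middle cerebral artery occlusion and 24 h of reperfusion, and the sham group comprised 3 libraries from mice that had the sham operation. Per the study's methods all mice were 56 days old and male, the filament was placed on the left side, and the hippocampus of the operated side was taken whole, so every cell type of the tissue is in each library. No genotype, transgene or drug distinguished the groups. The methods describe replicates pooled from 3 hippocampi in a passage on the protein runs that also names the transcriptome, so each library may be a pool of 3 animals, and the p-values measure the spread between libraries and not between single mice.

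TNF superfamily ligands are mostly trimeric membrane proteins that can be shed as soluble cytokines. They bind receptors that either carry a cytoplasmic death domain, which recruits the adaptors TRADD and FADD, or bind TRAF proteins directly and from there reach the NF-κB and MAP kinase pathways. In the brain, TNF is made mainly by microglia and invading myeloid cells, and TNF receptor 1 is expressed widely.

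The libraries held 37493042 to 44788547 counted reads. Levels between libraries are given as CPM, the reads of a gene relative to the library total after TMM scaling for composition, with factors of 1.07 to 1.17 after I/R and 0.899 to 0.915 in sham. The summed level of 6 hippocampal markers was 201 to 463 CPM after I/R and 837 to 885 CPM in sham, with 5 of the 6 lower in I/R, and that of 5 neuronal markers was 1353 to 2731 CPM after I/R and 4888 to 5146 CPM in sham. Choroid plexus markers ran from 138 to 4882 CPM after I/R and from 171 to 6263 CPM in sham, and were low in I/R replicate 3 and sham replicate 1. In whole tissue, fewer cells of a type and less RNA per cell cannot be told apart.

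Of the 46 tested genes, 20 (43.5%) were higher in I/R and 4 (8.70%) were lower, with 0.05 as the limit on the edgeR adjusted p and 1.2 on the fold. Across all 22996 genes, 17.2% were called higher and 16.3% lower. The 3 I/R libraries all lay above the 3 sham libraries for 24 of the 46 genes, against 26.1% of all genes, and all below them for 5, against 24.3% of all genes, while the groups overlapped for 17. The median log2 fold change was 0.71 over the 46 genes and 0.07 over all genes. With genes that had at most 3 sham reads set to their lower bound, the median of the 46 was 0.64. Of the 20 genes called higher, 6 had under 10 reads over the sham libraries and so passed the filter only through the I/R libraries: Tnfsf14, Tnfsf8, Tnfsf11, Tnf, Tnfrsf26 and Tnfrsf13c. Their being higher is partly built into the filter, which limits the count of 20 and their p-values.

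**Figure D1:**
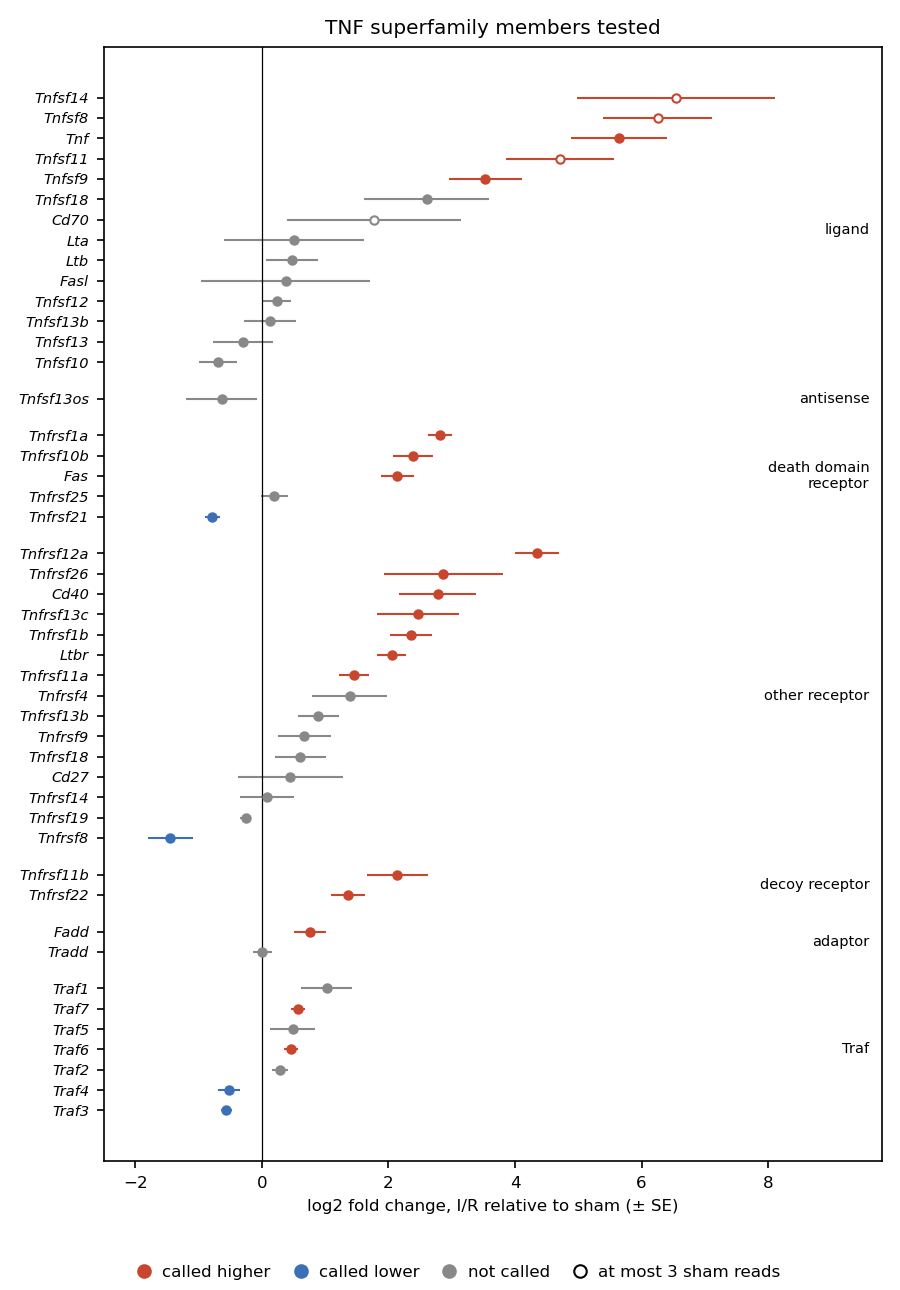
Log2 fold change of I/R relative to sham (horizontal axis, bars ± SE of the edgeR fit) for the 46 tested genes, grouped by role. Red points are called higher and blue points lower; open points mark genes with at most 3 sham reads, whose fitted value depends on the prior count. Tnfsf14 to Tnfsf11 and Tnfrsf12a lie farthest right, and 4 genes are called lower.

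The proximal promoters of 4 family genes are shown, 3 that rose and 1 that fell, because they differ in the short motifs they hold. They are the 250 bases before the transcription start from RefSeq on GRCm38.p6, 5′ to 3′ on the gene's strand, and 38 of the 50 genes had such an entry. Capitals mark a TATAAA box, an AP-1 motif (TGANTCA) or the 10-letter NF-κB consensus, each searched on both strands. The Tnf window is chr17:35202008-35202257 on the minus strand, with TATAAA starting 29 bases before the start site. The Tnfrsf12a window is chr17:23677450-23677699 on the minus strand and holds none of the 3 motifs. The Fas window is chr19:34290409-34290658 on the plus strand, with an AP-1 motif 211 bases before the start. The Tnfrsf8 window is chr4:145315165-145315414 on the minus strand, with an NF-κB consensus 168 and an AP-1 motif 132 bases before the start.
Tnf: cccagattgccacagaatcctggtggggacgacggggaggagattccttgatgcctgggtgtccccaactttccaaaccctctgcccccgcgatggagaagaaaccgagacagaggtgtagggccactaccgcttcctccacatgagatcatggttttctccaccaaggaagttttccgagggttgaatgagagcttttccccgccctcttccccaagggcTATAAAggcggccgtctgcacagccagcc
Tnfrsf12a: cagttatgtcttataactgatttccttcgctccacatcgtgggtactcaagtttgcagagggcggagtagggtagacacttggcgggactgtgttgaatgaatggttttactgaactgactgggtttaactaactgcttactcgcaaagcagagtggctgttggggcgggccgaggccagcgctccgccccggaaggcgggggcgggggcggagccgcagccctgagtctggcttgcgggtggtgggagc
Fas: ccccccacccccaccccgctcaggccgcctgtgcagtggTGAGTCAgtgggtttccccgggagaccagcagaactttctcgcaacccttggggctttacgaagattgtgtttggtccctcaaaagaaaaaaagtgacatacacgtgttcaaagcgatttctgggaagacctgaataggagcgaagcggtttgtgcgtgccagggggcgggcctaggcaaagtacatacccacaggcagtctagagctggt
Tnfrsf8: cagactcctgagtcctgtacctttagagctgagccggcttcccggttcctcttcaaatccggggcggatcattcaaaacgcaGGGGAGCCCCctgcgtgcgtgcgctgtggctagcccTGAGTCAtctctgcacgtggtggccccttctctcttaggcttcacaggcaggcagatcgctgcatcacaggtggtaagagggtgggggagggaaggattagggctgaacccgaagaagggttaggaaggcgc

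Over all 32851 promoters of that length, 3.90% held the NF-κB consensus, 6.75% the AP-1 motif and 12.4% TATAAA. Of the 14 genes called higher with a promoter, 0 held the NF-κB consensus, 2 the AP-1 motif and 2 TATAAA. Of the 4 called lower, 2 held the NF-κB consensus, Tnfrsf8 and Traf3. Of the 18 tested genes not called that had a promoter, 2 held it, Ltb and Tnfrsf9. These counts describe letters in a short window and say nothing of binding.

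Among the ligands, 5 of 14 tested were called higher and none lower, against 17.2% and 16.3% of all genes. Of the 5, all but Tnfsf9 passed the read filter only through the I/R libraries, so this count is partly built into the filter. Tnf, the founding cytokine of the family (chromosome 17, 34313994 to 34316622 in the coordinates of the table's BALB/cJ annotation), had 128, 42 and 129 reads after I/R and 4, 1 and 0 reads in the sham libraries. This is a level of 2.34 ± 1.14 CPM against 0.0426 ± 0.0537 CPM (SD, n = 3 each), so Tnf was at or near 0 reads in sham and detected in every I/R library, without overlap. The log2 fold change was 5.64 (SE 0.75, edgeR adjusted p = 0.000845), and it was 7.15 without sham replicate 1, which held 4 of the 5 sham reads. The genes of the other 2 ligands encoded beside Tnf, Lta and Ltb, which make the subunits of the lymphotoxins, were not called. Ltb had 44, 22 and 28 reads after I/R and 23, 23 and 14 in sham, and Lta had 4 to 6 reads after I/R and 0 to 6 in sham. An unnamed annotated gene overlaps Tnf and Lta on the same strand and Ltb on the opposite strand. How that overlap bears on their counts was not tested.

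Tnfsf9, the ligand of 4-1BB, was at 4.71, 2.89 and 1.82 CPM after I/R and at 0.438, 0.298 and 0.0585 CPM in the sham libraries. The groups did not overlap and the lowest I/R library was above the highest sham library, with a log2 change of 3.53 (SE 0.58, edgeR adjusted p = 0.00216). A share of 11.5% of its 50-base stretches also occurs in Gm11110, so its counts carry some uncertainty.

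Tnfsf8, the CD30 ligand, had 62, 31 and 24 reads after I/R and 0, 1 and 0 in the sham libraries. The depth-scaled ratio of the group sums was 105, with an exact 95% counting interval of 18.4 to 4170 (edgeR adjusted p = 0.000959), and the fitted log2 fold change went from 6.25 to 8.18 without sham replicate 2, which held the single sham read. Tnfsf11, the osteoclast cytokine RANKL, had 16, 29 and 23 reads after I/R and 0, 1 and 1 in sham, a ratio of 30.4 with an interval of 8.11 to 256 (edgeR adjusted p = 0.00313). Every I/R library exceeded every sham library for both genes, but the sham side rests on 1 or 2 reads, and these intervals cover counting error only. Tnfsf14 (LIGHT), a ligand of the lymphotoxin β receptor and of HVEM, had 25, 9 and 4 reads after I/R and 0 in each sham library. It was at least 11.3-fold higher when the sham group is set to the 3 reads that a count of 0 allows over the group (edgeR adjusted p = 0.0166). Its fitted log2 fold change went from 6.55 to 5.68 without I/R replicate 1.

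The ligands that did not pass the test differed in level. Tnfsf12 (TWEAK), the most abundant ligand per gene length in sham, was at 3.47 ± 0.641 CPM after I/R against 2.95 ± 0.488 CPM in sham (SD, n = 3 each), although 46.8% of its 50-base stretches are shared with the fused gene Tnfsfm13. Tnfsf10 (TRAIL) was at 1.21, 1.37 and 1.69 CPM after I/R and 2.55, 2.78 and 1.55 CPM in sham, which overlapped, with a log2 change of -0.69 (edgeR adjusted p = 0.112). Tnfsf18, the GITR ligand, had 49, 9 and 10 reads after I/R against 1, 1 and 7 in sham, a log2 change of 2.60 (edgeR adjusted p = 0.0697). The value turned on single libraries: it was 1.48 without I/R replicate 1 (edgeR adjusted p = 0.342) and 4.19 without sham replicate 3, where it passed the test (edgeR adjusted p = 0.0365). Tnfsf13 and Tnfsf13b, which encode the B cell factors APRIL and BAFF, lay under 1 CPM in every library and overlapped between groups. For Tnfsf13, 57.3% of the 50-base stretches occur in Tnfsfm13 or Tnfsf13os, which limits what its counts can show. Fasl had 0 to 6 reads a library, and Cd70 had 9 reads over the I/R libraries and 2 over the sham libraries. Cd40lg, Tnfsf4 and Tnfsf15, with 5, 1 and 8 reads in all, were below the filter, while Cd70 with 11 was just above it, and the antisense transcript Tnfsf13os (7 to 21 reads a library) was not called.

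**Figure D2:**
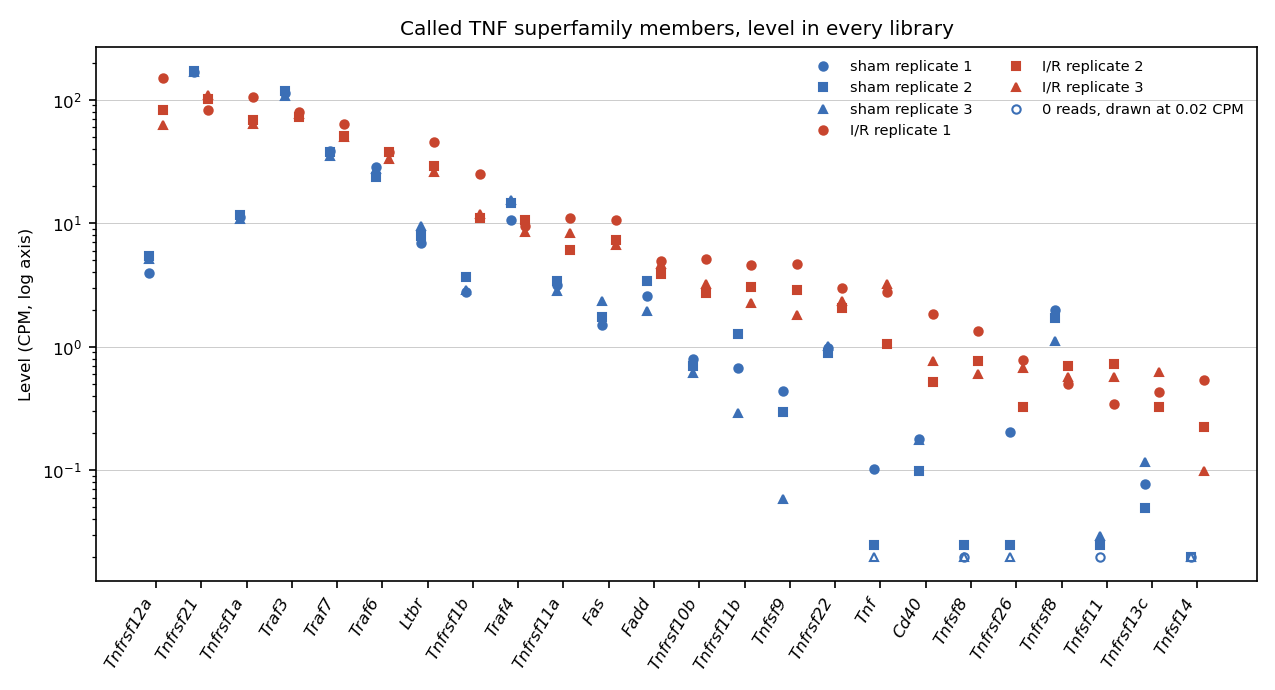
Level of the called genes in each library, in CPM on a log axis, with I/R and sham libraries in separate colours and a marker shape for each replicate; open markers are libraries with 0 reads, drawn at the bottom. For Tnfrsf12a the I/R libraries sit between 62.7 and 150 CPM and the sham libraries between 3.97 and 5.42 CPM, and for Tnfrsf21 the 3 I/R libraries sit below the 3 sham libraries.

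Receptors with a death domain moved in both directions: Tnfrsf1a, Tnfrsf10b and Fas rose, Tnfrsf21 fell, and Tnfrsf25 did not pass the test. Tnfrsf1a, which encodes TNF receptor 1 (chromosome 6, 123432716 to 123446076 in the table's coordinates), was at 105, 69.1 and 63.2 CPM after I/R and at 11.3, 11.7 and 10.8 CPM in the sham libraries. The sham libraries were nearly level, and the lowest I/R library stood far above all of them (log2 fold change 2.81, SE 0.19, edgeR adjusted p = 8.39e-05). The level at 79.1 ± 22.7 CPM after I/R against 11.3 ± 0.472 CPM in sham (SD, n = 3 each) rested on 368 to 4862 reads a library.

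Fas, the receptor of Fas ligand, was at 10.6, 7.35 and 6.70 CPM after I/R and at 1.49, 1.74 and 2.37 CPM in sham (log2 fold change 2.14, SE 0.26, edgeR adjusted p = 0.000566). Tnfrsf10b, the mouse TRAIL receptor, was at 5.10, 2.74 and 3.21 CPM after I/R and at 0.798, 0.696 and 0.614 CPM in sham (log2 fold change 2.38, SE 0.32, edgeR adjusted p = 0.000808). For both receptors the groups were separate, while their ligands Fasl and Tnfsf10 were not called. Tnfrsf21, also called death receptor 6 and known from neurons and axon pruning, was at 83.0, 102 and 110 CPM after I/R and at 167, 170 and 169 CPM in sham. All I/R libraries lay below all sham libraries, with a log2 change of -0.78 (SE 0.11, edgeR adjusted p = 0.00123), and I/R replicate 1, which had the lowest summed neuronal markers (1353 CPM), was also lowest here. The part of the neuronal markers in that fall was not tested. Tnfrsf25, death receptor 3, was at 7.86 ± 2.04 CPM after I/R against 6.85 ± 0.777 CPM in sham (SD, n = 3 each), and its groups overlapped.

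Of the 15 other receptors tested, decoys aside, 7 rose and 1 fell, against 17.2% and 16.3% of all genes. The 7 include Tnfrsf26 and Tnfrsf13c, which passed the read filter only through the I/R libraries. Tnfrsf12a encodes Fn14, the receptor of TWEAK (chromosome 17, 22155509 to 22157510 in the table's coordinates). It was at 150, 82.6 and 62.7 CPM after I/R and at 3.97, 5.42 and 5.12 CPM in the sham libraries. Its log2 change of 4.35 (SE 0.35, edgeR adjusted p = 0.000227) was the highest among the receptors that the naming rule took, and it was 3.91 without I/R replicate 1. I/R replicate 1 carried the highest level of Tnfrsf12a, and more generally was the highest I/R library for 17 of the 20 family genes called higher (85.0%), where 73.0% of all genes called higher had their highest level in that library.

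Tnfrsf1b, TNF receptor 2, was at 24.8, 11.1 and 11.8 CPM after I/R and at 2.75, 3.68 and 2.90 CPM in sham (log2 fold change 2.35, SE 0.33, edgeR adjusted p = 0.00121). Ltbr, the lymphotoxin β receptor, was at 45.7, 29.0 and 26.1 CPM after I/R and at 6.98, 7.95 and 9.42 CPM in sham (log2 fold change 2.05, SE 0.22, edgeR adjusted p = 0.000416). Neither gene's groups overlapped, and for both the rise was held by all 3 I/R libraries. Tnfrsf11a (RANK, the receptor of RANKL) was at 11.1, 6.13 and 8.41 CPM after I/R and 3.17, 3.38 and 2.81 CPM in sham, a log2 change of 1.45 (SE 0.24, edgeR adjusted p = 0.00199). Cd40, a receptor of antigen-presenting cells, was at 1.86, 0.523 and 0.772 CPM after I/R and at 0.180, 0.0994 and 0.176 CPM in sham, again without overlap. Its log2 fold change was 2.78 (SE 0.61, edgeR adjusted p = 0.00742), and 2.08 without I/R replicate 1.

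Tnfrsf26, a mouse receptor without a known human counterpart, and Tnfrsf13c, the BAFF receptor of B cells, were called higher at under 1 CPM. Tnfrsf26 had 13 to 36 reads a library after I/R and 0 to 8 in sham (log2 fold change 2.87, edgeR adjusted p = 0.0424), and its call was lost without I/R replicate 2 or 3 or sham replicate 2 or 3 (adjusted p 0.0531 to 0.140). Without sham replicate 1, where 8 of its 9 sham reads lay, the log2 fold change was 5.18. Tnfrsf13c had 13 to 25 reads after I/R and 2 to 4 in sham (log2 fold change 2.47, edgeR adjusted p = 0.0176), and its call was lost without I/R replicate 3 or sham replicate 1 or 2. B cell markers summed to 0.498 to 1.10 CPM after I/R and 0.468 to 0.720 CPM in sham and none of the 3 tested was called, and the part of B cells in the Tnfrsf13c result was not tested.

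Tnfrsf8 (CD30), the receptor of the CD30 ligand whose gene rose, was at 0.497, 0.698 and 0.573 CPM after I/R and at 1.98, 1.71 and 1.11 CPM in sham. All I/R libraries were below all sham libraries (log2 fold change -1.44, SE 0.35, edgeR adjusted p = 0.0120), although the call was lost without sham replicate 1 (log2 fold change -1.26, adjusted p = 0.0559). Tnfrsf19 (TROY), one of the most abundant family genes, was at 55.4 to 57.1 CPM after I/R and 64.9 to 69.5 CPM in sham, and its log2 change of -0.26 was under the fold limit (edgeR adjusted p = 0.0380). With libraries scaled by size alone that value was 0.02. The remaining receptors, Cd27, Tnfrsf4 (OX40), Tnfrsf9 (4-1BB), Tnfrsf13b (TACI), Tnfrsf14 (HVEM) and Tnfrsf18 (GITR), did not pass, at 0.319 to 1.95 CPM on average in I/R and 0.233 to 1.25 CPM in sham. Tnfrsf18 shares 18.7% of its 50-base stretches with the antisense gene Gm16008. Nearest to the threshold was Tnfrsf13b with a log2 change of 0.89 (edgeR adjusted p = 0.0593). Tnfrsf17 (BCMA) had 9 reads in all and was not tested.

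Both tested decoy receptors, which bind ligand without signalling, were called higher, against 17.2% of all genes. The class holds only these 2 tested genes. Tnfrsf11b, osteoprotegerin, the soluble decoy of RANKL, was at 4.6, 3.06 and 2.27 CPM after I/R and at 0.669, 1.27 and 0.293 CPM in sham (log2 fold change 2.14, SE 0.48, edgeR adjusted p = 0.00905), and the log2 fold change was 2.76 without sham replicate 2. Tnfrsf22, a decoy receptor for TRAIL, was at 2.98, 2.07 and 2.36 CPM after I/R and at 0.978, 0.894 and 1.02 CPM in sham (log2 fold change 1.36, SE 0.27, edgeR adjusted p = 0.00492), and 27.4% of its 50-base stretches occur in other genes. No row is named Tnfrsf23. For the RANKL axis, the ligand Tnfsf11, the receptor Tnfrsf11a and the decoy Tnfrsf11b were thus each higher in I/R with no overlap between groups.

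Of the adaptors, Fadd, which links death receptors to caspase-8, was at 4.95, 3.86 and 4.66 CPM after I/R and at 2.60, 3.40 and 1.93 CPM in sham. The lowest I/R library was close to the highest sham library, and the call (log2 fold change 0.76, SE 0.25, edgeR adjusted p = 0.0435) was lost without I/R replicate 2 or 3 or sham replicate 1 or 3, at adjusted p 0.0585 to 0.141. Tradd, the adaptor of TNF receptor 1, was at 7.04 ± 0.366 CPM after I/R against 7.02 ± 0.432 CPM in sham (SD, n = 3 each), with a log2 change of 0.01 (SE 0.15, edgeR adjusted p = 0.984).

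The Traf genes had log2 fold changes between -0.56 and 1.03. Traf7, which lacks the TRAF domain of the others, was at 64.0, 50.6 and 50 CPM after I/R and 38.4, 37.4 and 35.1 CPM in sham (log2 fold change 0.57, SE 0.12, edgeR adjusted p = 0.00545). Traf6, which also serves interleukin-1 and Toll-like receptors, was at 37.9, 37.6 and 33.1 CPM after I/R and 28.4, 23.5 and 27.3 CPM in sham. Its log2 fold change was 0.46 (SE 0.11, edgeR adjusted p = 0.0125), and the call was lost without I/R replicate 2 or sham replicate 2 (adjusted p 0.0517 and 0.0584). Both genes were higher in every I/R library than in any sham library. Traf3, a brake on noncanonical NF-κB signalling, was at 79.3, 72.7 and 76.7 CPM after I/R and 113, 117 and 107 CPM in sham, and fell without overlap (log2 fold change -0.56, SE 0.09, edgeR adjusted p = 0.00146), a call lost on FPKM. Traf4 was at 9.42, 10.5 and 8.49 CPM after I/R and 10.7, 14.7 and 15.4 CPM in sham (log2 fold change -0.52, SE 0.17, edgeR adjusted p = 0.0448). Sham replicate 1 nearly met the I/R libraries, and the Traf4 call was lost without I/R replicate 2 or 3 or sham replicate 2 or 3 and with libraries scaled by size alone, on FPKM and with limma-voom. Traf1, Traf2 and Traf5 did not pass, with log2 fold changes of 1.03, 0.28 and 0.49.

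Per gene length, as FPKM (fragments by length and by library total), the order of the levels changed between the groups. In sham the highest were Tnfrsf21 at 41.8 ± 0.225 FPKM, Traf7 at 27.2 ± 1.28 FPKM and Traf3 at 22.5 ± 0.832 FPKM (SD, n = 3 each), with Tnfrsf12a in place 11 at 4.82 ± 0.730 FPKM. In I/R they were Tnfrsf12a at 121 ± 62.9 FPKM and Tnfrsf1a at 104 ± 35.9 FPKM, followed by Traf7 at 49.2 ± 9.92 FPKM and Ltbr at 40.5 ± 15.1 FPKM. Tnfrsf12a and Tnfrsf1a differ by less than their spread in I/R, as do Traf7 and Ltbr, whereas the first 3 places in sham are separated by more than theirs. Unlike CPM here, FPKM carries no scaling for library composition.

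**Figure D3:**
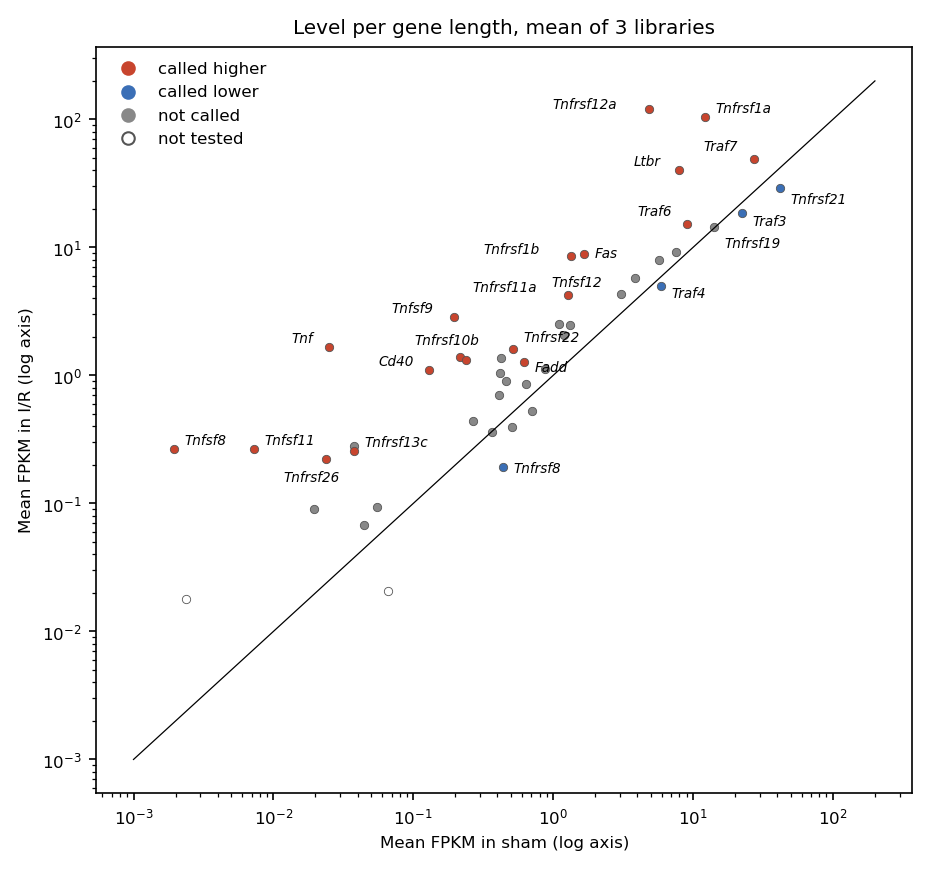
Mean FPKM of 3 libraries in sham (horizontal) and I/R (vertical), both axes logarithmic, for genes with a value above 0 in both groups; the line marks equal levels. Tnfrsf12a goes from 4.82 to 121 FPKM and Tnfrsf1a from 12.1 to 104 FPKM, while Tnfrsf21 is the highest gene below the line.

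Ratios within a library do not depend on how libraries are scaled. Tnfrsf1b relative to Tnfrsf1a was 0.0953, 0.0648 and 0.0755 after I/R and 0.0981, 0.127 and 0.109 in the sham libraries, as FPKM ratios. All I/R ratios were below all sham ratios, narrowly for I/R replicate 1, and the log2 difference was -0.51 (exact two-sided permutation test, p = 0.1, the smallest that 3 against 3 can give). Tnfrsf12a relative to its ligand Tnfsf12 was 35.7, 28.7 and 17.1 after I/R and 1.38, 1.50 and 1.93 in sham, which made the log2 difference 4.03 (exact two-sided permutation test, p = 0.1). The receptor thus exceeded its ligand in every library, and by more in I/R, with the limit that the Tnfsf12 counts share sequence with Tnfsfm13.

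**Figure D4:**
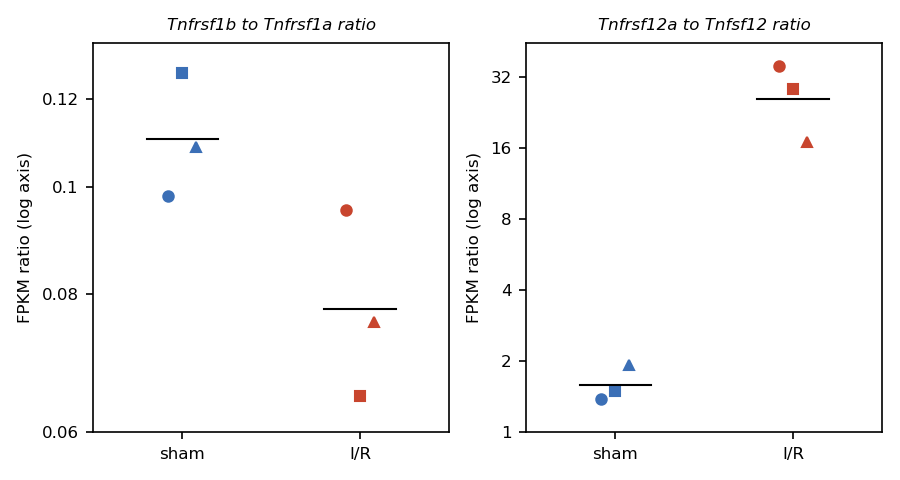
FPKM ratios within each library on log axes, Tnfrsf1b to Tnfrsf1a (left) and Tnfrsf12a to Tnfsf12 (right), for 3 sham and 3 I/R libraries; lines are geometric means and marker shapes are replicates. The left ratio is 0.0648 to 0.0953 after I/R and 0.0981 to 0.127 in sham, and the right ratio is 17.1 to 35.7 and 1.38 to 1.93.

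The pathway partners were 37 other genes of TNF receptor signalling, outside the family rule. Against 17.2% called higher and 16.3% called lower over all genes, 21 partners rose (56.8%), 3 fell (8.11%) and 13 did not pass. The median log2 change of the partners was 0.66, against 0.07 over all genes. The highest was Ripk3, a kinase of necroptosis, at 5.94, 3.99 and 2.19 CPM after I/R and 0.0515, 0.149 and 0.790 CPM in sham (log2 fold change 3.65, SE 0.77, edgeR adjusted p = 0.00871), and the change was 5.28 without sham replicate 3, where most of its sham reads lay. Its substrate Mlkl, the executioner of necroptosis, followed at 3.48, 2.79 and 1.37 CPM against 0.489, 0.323 and 0.410 CPM (log2 fold change 2.64, edgeR adjusted p = 0.00166). Both were separate between groups, and both were highest in I/R replicate 1.

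Nfkb2, the noncanonical NF-κB subunit, rose by 2.43 on the log2 scale (edgeR adjusted p = 0.00126), and Rhbdf2, which escorts the TNF sheddase ADAM17, by 2.42 (edgeR adjusted p = 0.00133). Their I/R libraries were at 30.6, 15.9 and 12.5 CPM for Nfkb2, against 2.98 to 4.0 CPM in sham, and at 12.3, 6.28 and 5.63 CPM for Rhbdf2, against 1.02 to 1.91 CPM in sham. The 3 partners that fell were Cyld, a deubiquitinase that restrains NF-κB, at 59.1, 83.5 and 98.7 CPM after I/R against 163, 148 and 156 CPM in sham (log2 fold change -0.95, SE 0.17, edgeR adjusted p = 0.00288), and Xiap and Rbck1. Xiap, a caspase inhibitor, and Rbck1, a subunit of the linear ubiquitin ligase, each had a log2 change of -0.39 (edgeR adjusted p = 0.030 and 0.00737). Both lost their calls with libraries scaled by size alone and on FPKM, and Xiap also without any 1 of the sham replicates. Among the partners that rose, Ikbke, Nfkbie, Adam17 and Tnfaip3 likewise lost their calls without any 1 of the sham replicates. Ikbke and Nfkbie also lost theirs without I/R replicate 1, and Tnip2 without sham replicate 2 or 3. The other partners that rose kept their calls with each library left out. I/R replicate 1 was the highest I/R library for 21 of the 21 partners that rose, against 73.0% of all genes called higher. That replicate 1 is highest is thus shared with the family genes and with most genes called higher.

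**Figure D5:**
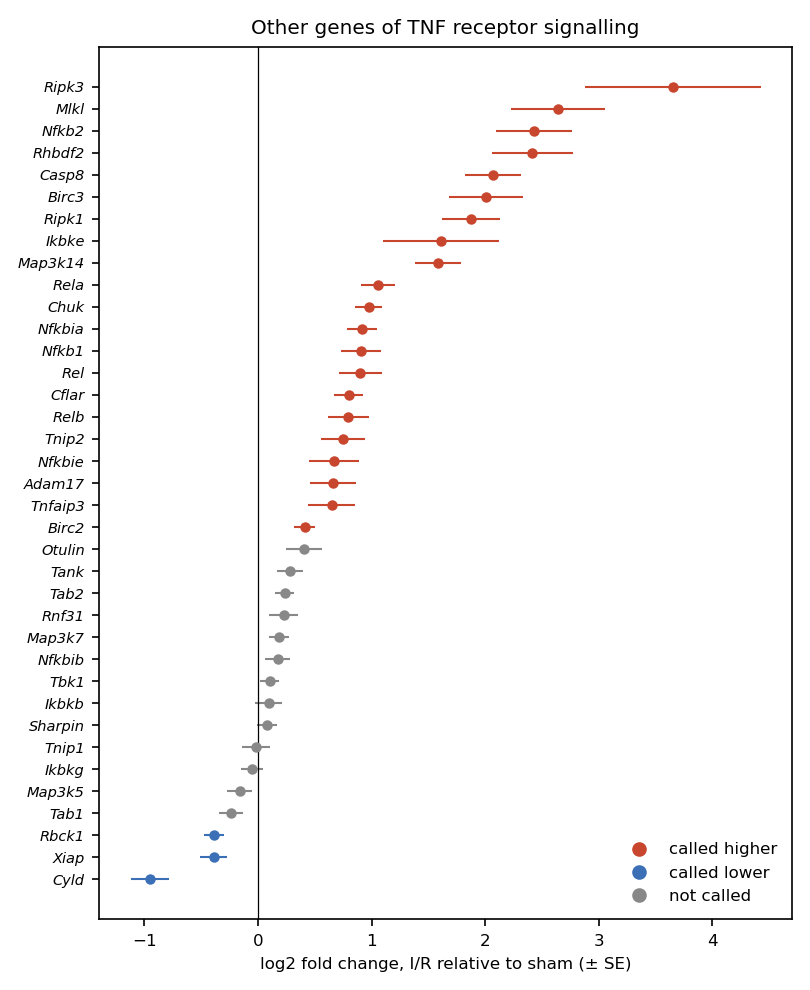
Log2 fold change of I/R relative to sham (bars ± SE of the edgeR fit) for the 37 pathway partners, coloured by call. Ripk3 at 3.65 and Mlkl at 2.64 are the highest and Cyld at -0.95 is the lowest.

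Markers of several other cell types differed between the same groups. Neutrophil markers summed to 6.5 to 30.3 CPM after I/R and 0.439 to 1.75 CPM in sham, with 4 of the 5 tested higher and Ly6g at or under 3 reads, and monocyte or macrophage markers to 235 to 466 CPM against 96.2 to 105 CPM, with 5 of 6 higher. Among the I/R libraries, both sums were highest in replicate 1, as were those of microglial, astrocyte, endothelial, oligodendrocyte, T cell and B cell markers. That library was also highest for most family genes called higher and for 73.0% of all genes called higher. Microglial markers summed to 253 to 342 CPM after I/R and 244 to 277 CPM in sham, with 2 higher and 2 lower of 7 tested and Itgam at 0 in every library. Endothelial markers were higher for 6 of 6, at 317 to 524 CPM against 193 to 196 CPM, and astrocyte markers were at 2491 to 3171 CPM against 1392 to 1498 CPM, with 2 higher and 2 lower of 5. T cell markers were at 3.46 to 4.11 CPM against 0.965 to 2.29 CPM, with Cd3e, Cd3g and Cd8a at or under 3 reads in every library. Most of that sum was Lck, at 3.26 to 3.65 CPM after I/R and 0.702 to 2.11 CPM in sham. Of the 3 T cell markers tested, only Lck was called. Striatal markers were at 32.4 to 36.4 CPM against 28.7 to 38.1 CPM and oligodendrocyte markers at 4501 to 4951 CPM against 5742 to 7110 CPM. The part of these cells in the family results was not tested.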

How the data were processed

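RNA was measured by bulk sequencing of 6 hippocampus libraries, 3 I/R and 3 sham, grouped by their sample titles. The authors deposited 1 table with raw counts and FPKM per gene and library. Per the study's methods, reads were aligned with TopHat2 to an Ensembl genome and counted with HTSeq; the submitters' processing notes instead name Bowtie 0.12.2 and mm8, and 40303 of 41386 gene identifiers are of the BALB/cJ annotation, so the aligner and build are not settled and neither is the strand setting. The deposited FPKM values divide by the total count and by a gene length with a median of 0.62 of the length column. Columns of the authors' own means and comparisons (8) were not used. A total of 4 rows broken over lines were rejoined.

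Counts were tested with edgeR 4.0.16 (TMM, robust quasi-likelihood test, genes with at least 10 reads in all, Benjamini-Hochberg adjustment over 22996 genes) in R 4.3.3; the limits for a call were 0.05 on the adjusted p and 1.2 on the fold. Ratios of FPKM were compared with an exact permutation test. Alternatives used DESeq2 1.42.0 and limma 3.58.1. The edgeR, DESeq2 and limma-voom fits were tested on simulated data. Same-numbered libraries did not deviate together, so no pairing was used. Depth was 37493042 to 44788547 counts a library; intervals and floors (3 counts) cover counting error only. Shared sequence was measured as the share of 50-base stretches of a gene's GENCODE transcripts found in another gene.

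The family genes, partner list and marker lists were chosen with earlier results of these data known. Values in every library are given for each called gene with a mean of at least 1 CPM in either group and for every called ligand, and for the called partners the 4 with the largest rises and up to 4 that fell are named.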

Additional observations from a re-analysis of the deposited data

How the results depend on the processing

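Over the alternatives, the family genes called numbered 18 to 30, and none of the 24 called genes changed direction. The share of all genes called is given for the main fit only (17.2% higher and 16.3% lower). The counts under each alternative therefore have no share of all genes beside them and show only how the calls moved. Of the genes not called, Tnfrsf19 went from -0.26 to 0.02 with size scaling alone and passed with upper quartile factors. Fasl, Lta, Tnfsf13, Tnfsf13b, Cd27, Tnfrsf14 and Tradd, also not called, changed sign under at least 1 alternative. With only a fold change over 2 counted, 1 family gene was called lower and 10 partners were called in all, against 4 and 24. On FPKM with a pseudocount of 1 or 0.1, limma called 1 family gene lower under each. Leaving out each library in turn gave 20 to 24 family genes called (17 to 20 higher, 3 to 4 lower) and 18 to 24 partners, and moved the log2 difference of the Tnfrsf1b to Tnfrsf1a ratio between -0.66 and -0.38 and that of the Tnfrsf12a to Tnfsf12 ratio between 3.80 and 4.33. With libraries scaled by size alone the median log2 change of all genes was 0.35 instead of 0.07 and that of the family 1.0, with 27 called (24 higher, 3 lower). With the replicate number as a block, 22 family genes (19 higher, 3 lower) and 23 partners were called, Fadd and Traf4 being lost. The deviations of same-numbered libraries from their group means correlated at -0.16, 0.08 and -0.28, which gave no sign of a pairing. The highest correlation, 0.39, joined I/R replicate 3 and sham replicate 1, the libraries low in choroid plexus markers. With 3 libraries a group, this check cannot settle whether the numbers mark a shared batch. With the mean choroid plexus level as a covariate 25 were called, without Fadd. Tnfrsf8, Traf3 and Traf4 lost their calls on FPKM, Traf4 also with limma-voom, and Tnfsf14 and Tnfrsf26 with a pseudocount of 1. DESeq2 added Tnfsf18 and Tnfrsf13b. The cause of these changes was not tested. Depth limits what can be said of the sparsest genes: Fasl, Lta and Cd70 had at most 7 reads in any library.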

Other observations

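The relatives of the family outside the naming rule were also measured. Eda2r, the receptor of the A2 isoform of ectodysplasin, had 892, 416 and 501 reads after I/R and 17, 7 and 16 in the sham libraries. This is 14.0 ± 4.66 CPM against 0.360 ± 0.162 CPM (SD, n = 3 each), a log2 change of 5.29 (SE 0.38, edgeR adjusted p = 9.44e-05), with the groups far apart. Eda, the gene of the ectodysplasin ligands, was at 2.98, 4.71 and 4.93 CPM after I/R and at 10.4, 9.09 and 9.30 CPM in sham, a log2 change of -1.19 (SE 0.21, edgeR adjusted p = 0.00302). The receptor rose and the ligand gene fell, each without overlap between groups. Relt, a receptor of the same family, was at 19.0, 19.7 and 14.7 CPM after I/R and 12.8, 11.3 and 12.2 CPM in sham (log2 fold change 0.55, edgeR adjusted p = 0.0169). Edar and its adaptor Edaradd lay between 0 and 1.11 CPM, overlapped between groups and were not called.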
